A study of Mus musculus with 35 samples.

Results

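The interferon-gamma signalling chain was followed here through 8 genes: the cytokine Ifng, its receptor chains Ifngr1 and Ifngr2, the receptor-bound kinases Jak1 and Jak2, the transcription factors Irf1 and Irf8, and the inhibitor Socs1. Every probe set annotated to exactly 1 of these genes was taken, which gave 13 probe sets for 8 genes among 22626 probe sets and 12393 genes measured. Tracheal RNA of mice was hybridised to 35 arrays, 5 in each of 7 groups. The groups were allografts (tracheas moved into recipients whose MHC, the set of tissue-type genes, did not match the donor) at day 4, day 14 and day 25, isografts (MHC-matched recipients) at the same days, and native trachea that was never transplanted. All grafts were heterotopic, which means that the trachea was placed outside the airway. No drug, transgene or knockout was part of any group in the labels. Strain, age and sex of the mice were not given in the sources used here, and nothing there says whether each array came from its own animal, so p-values measure the spread between arrays, which may be technical.

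Interferon-gamma is made mainly by activated T cells and NK cells. It binds a receptor built of IFNGR1, which holds the ligand and carries JAK1, and IFNGR2, which carries JAK2. The signal of these kinases turns on early genes such as Irf1 through a DNA element called the gamma-activated site. The product of Irf1, with IRF8 in myeloid cells, drives later genes of antigen presentation, chemokines and guanylate-binding proteins. SOCS1 is induced by the same signal and blocks the kinases. In organ transplants the cytokine is known as a product of the T cells that respond to donor MHC.

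Promoters are shown for the 4 members in which the 250 bases before the annotated start held a motif of this pathway. The motifs searched on both strands were TTCNNNGAA, the core of the gamma-activated site, and GAAA followed by any 2 bases and another GAAA, the core of the element that interferon regulatory factors bind; the first was found in 7.02% of 32851 mouse promoters of the same length and the second in 2.98%. Sequences and starts are those of RefSeq on GRCm38.p6, all 8 genes had an entry, and Irf1 and Irf8 had 2 promoters each, of which the first is shown. Each sequence runs 5′ to 3′ on the strand of the gene, with the motif matches in capitals. Irf1 lies at chr11:53769764-53770013 on the plus strand, Irf8 at chr8:120736108-120736357 on the plus strand, Ifng at chr10:118440796-118441045 on the plus strand and Socs1 at chr16:10785537-10785786 on the minus strand.
Irf1 promoter: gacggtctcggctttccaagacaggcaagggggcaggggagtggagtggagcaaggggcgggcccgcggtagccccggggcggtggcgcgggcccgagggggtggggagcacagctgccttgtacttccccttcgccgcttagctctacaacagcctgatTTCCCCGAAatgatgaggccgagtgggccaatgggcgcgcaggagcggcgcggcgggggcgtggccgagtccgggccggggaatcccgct
Irf8 promoter: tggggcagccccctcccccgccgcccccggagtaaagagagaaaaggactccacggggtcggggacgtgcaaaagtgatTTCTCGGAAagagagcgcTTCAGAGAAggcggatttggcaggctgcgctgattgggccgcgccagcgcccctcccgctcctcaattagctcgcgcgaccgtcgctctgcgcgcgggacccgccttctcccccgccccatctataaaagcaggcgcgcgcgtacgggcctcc
Ifng promoter: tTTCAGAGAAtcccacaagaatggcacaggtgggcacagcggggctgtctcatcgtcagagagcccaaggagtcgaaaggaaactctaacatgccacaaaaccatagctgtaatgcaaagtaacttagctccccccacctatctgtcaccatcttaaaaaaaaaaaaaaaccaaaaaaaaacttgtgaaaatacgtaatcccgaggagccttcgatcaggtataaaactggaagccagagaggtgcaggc
Socs1 promoter: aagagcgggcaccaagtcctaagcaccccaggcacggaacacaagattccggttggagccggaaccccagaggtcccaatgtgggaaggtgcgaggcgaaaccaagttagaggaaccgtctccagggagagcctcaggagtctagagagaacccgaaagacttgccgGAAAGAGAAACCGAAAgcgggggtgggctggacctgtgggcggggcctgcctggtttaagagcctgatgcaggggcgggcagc
Irf1 held 1 match to the gamma-activated core, TTCCCCGAA, at 90 to 82 bases before the start. Irf8 held 2, TTCTCGGAA at 171 to 163 and TTCAGAGAA at 153 to 145 bases before it. Ifng held TTCAGAGAA at 249 to 241 bases before its start. Socs1 held 2 overlapping matches to the regulatory-factor core, GAAAGAGAAA at 83 to 74 and GAAACCGAAA at 77 to 68 bases before the start. The windows of Ifngr1, Ifngr2, Jak1 and Jak2 and the other promoters of Irf1 and Irf8 held neither set of letters.

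The deposited values were log2 intensities from GCRMA, which models non-specific binding from probe sequence, removes it, scales the arrays to each other and combines the probes of each set. A group mean under 4 was taken as near background and one of 4 to 5 as low. As a yardstick, 17 genes not expected in trachea (of retina, testis, pituitary and the like) had a median of 3.40 over 595 values, with 81.2% of them under 4 and 98.7% under 5, against 34.3% and 47.4% of all values on the arrays. By this measure Socs1 was near background in all 7 groups, Ifng was near background in 6 groups and rose above it only in allografts at day 14, and both Ifngr2 probe sets were low, with 1423558_at under 4 in native trachea. Where a gene had several probe sets, the one with the highest mean over the 35 arrays stands for it and the others are given beside it. By that probe set Ifngr1, Jak1, Jak2, Irf1 and Irf8 had every group mean above 5, with Irf8 in native trachea the closest to it at 5.06. Of their other probe sets, 1448452_at of Irf8 was low in native trachea (4.08), and 1433804_at of Jak1 was low in native trachea (4.81) and day 14 isografts (4.97). Where 1 of the 2 groups compared lay under 4, the size of a difference depends on the authors' background model. Levels of different probe sets were not set against each other, since probes differ in brightness. Array medians lay between 5.07 and 5.30, and 33 arrays correlated with the rest of their own group at a median of 0.958 to 0.981. Isograft day 25 replicate 5 and native replicate 5 stood apart, at 0.941 and 0.950, and skin markers were brighter on both than on any other array of the group.

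**Figure D1:**
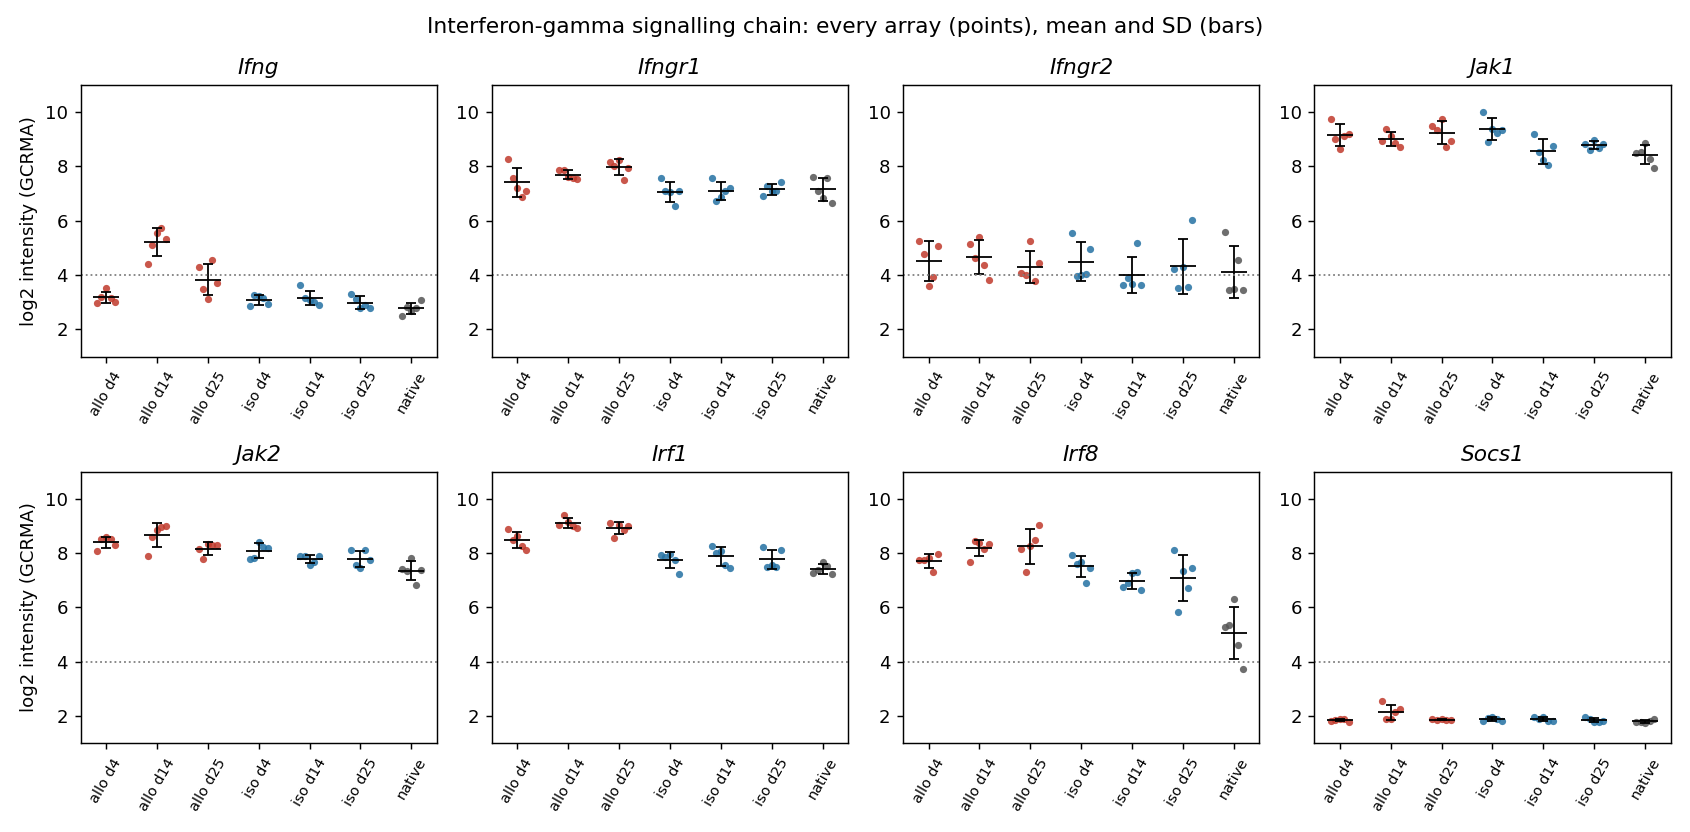
Log2 intensity of the 8 genes (vertical axis) on each of the 35 arrays, by group (horizontal axis); points are arrays, bars are the mean and SD of 5 arrays, and the dotted line marks log2 4. Ifng exceeds the line on all 5 day 14 allograft arrays, Socs1 lies under it on all 35 arrays, and Irf8 is lowest in native trachea.

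Ifng itself, measured by probe set 1425947_at, was raised in allografts at day 14 and, to a smaller extent, at day 25. Its log2 intensity in allografts was 2.98, 3.18, 3.53, 3.17 and 3.02 at day 4, then 4.42, 5.09, 5.54, 5.74 and 5.34 at day 14, and 4.28, 3.48, 3.13, 4.55 and 3.71 at day 25. In isografts it was 2.86, 3.25, 3.22, 3.15 and 2.92 at day 4, then 3.62, 3.15, 3.09, 3.01 and 2.91 at day 14, and 3.32, 3.13, 2.78, 2.89 and 2.77 at day 25. Native trachea gave 2.50, 2.84, 2.67, 2.77 and 3.08. Every day 14 allograft array was above every isograft and native array, the day 4 allografts and isografts overlapped, and 2 of the day 25 allograft arrays exceeded 4. Over all arrays 28 of 35 were under 4, and the 4 arrays at 5 or more were all day 14 allografts.

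At day 14 Ifng averaged 5.23 ± 0.51 in allografts and 3.16 ± 0.28 in isografts (SD, n = 5 each), a log2 difference of 2.07 (4.20-fold, SE 0.22, limma adjusted p = 2.78e-08). At day 25 it averaged 3.83 ± 0.58 in allografts and 2.98 ± 0.24 in isografts, a difference of 0.85 (1.81-fold, limma adjusted p = 0.00778), and the arrays of the groups overlapped. At day 4 the difference was 0.10, with a 95% interval of -0.35 to 0.54 and a limma adjusted p of 0.929. Since the isograft level was near background, these folds depend on the authors' background model. The day 25 call was lost in a fit on the 10 compared arrays alone (limma adjusted p = 0.0966). In bulk tissue, fewer cells of a type and less RNA per cell cannot be told apart, so these values say nothing of how many cells made the transcript.

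The ligand-binding receptor chain, Ifngr1, changed less. In allografts it measured 8.27, 7.58, 7.21, 6.89 and 7.09 at day 4, then 7.88, 7.85, 7.61, 7.56 and 7.55 at day 14, and 8.18, 8.02, 8.22, 7.49 and 7.93 at day 25. Isografts gave 7.56, 7.11, 7.05, 6.53 and 7.09 at day 4, then 7.58, 6.73, 6.89, 7.10 and 7.22 at day 14, and 6.91, 7.27, 7.09, 7.08 and 7.43 at day 25, while native trachea gave 7.61, 7.09, 6.85, 7.57 and 6.65. At day 25 all 5 allograft arrays lay above all 5 isograft arrays, with means of 7.97 ± 0.29 and 7.15 ± 0.20 (SD), a difference of 0.82 (1.76-fold, SE 0.22, limma adjusted p = 0.0117). The difference of 0.59 at day 14 did not pass (limma adjusted p = 0.0868), although it did when isograft day 14 replicate 1 was left out (0.71, limma adjusted p = 0.0396). At day 4 the groups overlapped, with a difference of 0.34 and an adjusted p of 0.764 by limma. Isografts and native trachea had means between 7.07 and 7.15, and none of the 3 isograft groups differed from native trachea by more than 0.09.

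The signal-carrying chain Ifngr2 showed no called difference between allografts and isografts, and its values were widely spread. Probe set 1423557_at gave 5.26, 4.78, 3.60, 3.91 and 5.08 in day 4 allografts, 5.15, 4.64, 5.39, 4.38 and 3.82 in day 14 allografts, and 4.07, 3.99, 5.27, 3.77 and 4.44 in day 25 allografts. In isografts it gave 5.54, 3.96, 3.99, 4.02 and 4.95 at day 4, then 3.62, 3.89, 3.68, 5.18 and 3.65 at day 14, and 4.21, 3.54, 4.28, 3.57 and 6.01 at day 25; native trachea gave 5.59, 3.45, 3.47, 4.56 and 3.45. All groups overlapped, with SDs up to 1.01, and the largest allograft-isograft difference, 0.67 at day 14, had a 95% interval of -0.29 to 1.63. The other probe set, 1423558_at, varied less and ran from 3.44 to 5.10 over all arrays. It was higher than native trachea by 0.70, 0.75 and 0.61 in allografts at days 4, 14 and 25 (limma adjusted p = 0.00127, 0.000566 and 0.00536) and by 0.45 in isografts at both day 4 and day 14 (limma adjusted p = 0.0286 and 0.0396). The 2 probe sets thus disagreed on these calls, both at levels close to background. Some genes not expected in trachea were also called higher than native in day 4 and day 14 isografts, as given below. The part of such a rise of low values in the Ifngr2 calls was not tested.

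Jak1, which docks on IFNGR1 and also serves many other cytokine receptors, was bright on every array and differed little between allografts and isografts. Probe set 1433805_at gave 9.75, 9.0, 8.64, 9.13 and 9.19 in day 4 allografts, 8.95, 9.37, 9.13, 8.87 and 8.71 in day 14 allografts, and 9.50, 9.34, 9.74, 8.70 and 8.92 in day 25 allografts. Isografts gave 10.02, 8.89, 9.37, 9.23 and 9.34 at day 4, then 9.21, 8.54, 8.25, 8.04 and 8.75 at day 14, and 8.83, 8.61, 8.99, 8.66 and 8.83 at day 25, against 8.49, 8.53, 8.88, 8.28 and 7.93 in native trachea. Day 4 isografts were the highest group, above every native array, and allografts and isografts overlapped at each day. The allograft-isograft differences of -0.23, 0.44 and 0.46 at days 4, 14 and 25 did not pass (limma adjusted p = 0.793, 0.267 and 0.271). Probe set 1433803_at, next in brightness, gave 0.76 at day 14 (limma adjusted p = 0.00335), and the dim 1433804_at gave no call at any day.

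Jak2, the kinase on IFNGR2, was higher in allografts at day 14. Probe set 1421066_at measured 8.09, 8.52, 8.59, 8.52 and 8.30 in day 4 allografts, 7.91, 8.61, 8.84, 8.96 and 9.01 in day 14 allografts, and 8.15, 7.78, 8.32, 8.30 and 8.29 in day 25 allografts. In isografts it measured 7.77, 7.83, 8.41, 8.22 and 8.19 at day 4, then 7.91, 7.88, 7.57, 7.67 and 7.90 at day 14, and 8.10, 7.55, 7.47, 8.12 and 7.73 at day 25; native trachea measured 7.41, 7.36, 7.83, 6.82 and 7.38. At day 14, 4 allograft arrays lay above all isograft arrays and replicate 1 lay at the isograft maximum. The means were 8.66 ± 0.45 in allografts and 7.79 ± 0.15 in isografts (SD), a difference of 0.88 (1.84-fold, SE 0.19, limma adjusted p = 0.0012), while 0.32 at day 4 and 0.37 at day 25 did not pass. The other probe set, 1421065_at, gave 1.35 at day 14 (limma adjusted p = 0.000248). In that probe set day 14 isografts differed from day 4 isografts by -1.43 (limma adjusted p = 0.000163), whereas the brighter one gave -0.30 (limma adjusted p = 0.386).

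Irf1, the early transcription factor whose promoter holds TTCCCCGAA, was higher in allografts than in isografts at days 14 and 25, and its arrays did not overlap at day 4 either. In allografts its probe set 1448436_a_at measured 8.88, 8.49, 8.65, 8.28 and 8.11 at day 4, then 9.02, 9.40, 9.16, 8.99 and 8.93 at day 14, and 9.11, 8.57, 9.04, 8.85 and 9.01 at day 25. Isografts measured 7.95, 7.87, 7.96, 7.74 and 7.24 at day 4, then 8.26, 8.0, 8.09, 7.58 and 7.46 at day 14, and 8.21, 7.50, 7.58, 7.50 and 8.12 at day 25, and native trachea measured 7.27, 7.39, 7.69, 7.53 and 7.24. No allograft array overlapped an isograft array of its day, nor any native array. The differences were 0.73 at day 4, 1.22 at day 14 (2.34-fold, limma adjusted p = 5.81e-06) and 1.14 at day 25 (2.20-fold, limma adjusted p = 1.6e-05), each with SE 0.17.

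The day 4 difference of Irf1 lay just outside the threshold, with a limma adjusted p of 0.0595 and an unadjusted p of 0.000219. It passed when arrays were weighted by their quality (limma adjusted p = 0.00137) and when the replicate number, which does not pair the samples, was a block (0.0267). It also passed when allograft day 4 replicate 5, the lowest allograft, was left out (0.82, limma adjusted p = 0.0318). That was the only 1 of 10 single omissions to pass, with limma adjusted p up to 0.276, and no other setting gave the call. No isograft group passed against native trachea in Irf1, with differences of 0.33, 0.45 and 0.36 and limma adjusted p of 0.12, 0.0511 and 0.20 at days 4, 14 and 25.

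Irf8, the regulatory factor of monocytes, dendritic cells and B cells, was high in every kind of graft and higher still in the later allografts. Probe set 1416714_at gave 7.74, 7.75, 7.84, 7.30 and 7.98 in day 4 allografts, 7.67, 8.43, 8.36, 8.14 and 8.34 in day 14 allografts, and 8.14, 7.30, 8.26, 8.50 and 9.04 in day 25 allografts. Isografts gave 7.93, 7.60, 7.68, 6.89 and 7.45 at day 4, then 6.77, 6.91, 7.27, 7.30 and 6.65 at day 14, and 8.10, 5.85, 7.36, 6.73 and 7.44 at day 25. Native trachea gave 5.28, 5.37, 6.32, 4.61 and 3.74, the lowest and most spread group, and only isograft day 25 replicate 2 fell within its range. At day 14 the allografts lay wholly above the isografts, with 8.19 ± 0.31 and 6.98 ± 0.30 (SD), a difference of 1.21 (2.31-fold, SE 0.36, limma adjusted p = 0.0245).

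The allograft-isograft calls of Irf8 were narrow. At day 25 the difference was 1.16 (limma adjusted p = 0.0365) with overlapping arrays, and at day 4 it was 0.21 (limma adjusted p = 0.902). Leaving out 1 of 5 of the 10 arrays at day 14 (allograft replicates 2, 3 and 5, isograft replicates 1 and 5) ended the call, with differences of 1.12 to 1.17 and limma adjusted p of 0.0532 to 0.0632. At day 25, 6 of the 10 did so (allograft replicates 1, 3, 4 and 5, isograft replicates 2 and 4), with 0.84 to 1.18 and limma adjusted p up to 0.167. Probe set 1448452_at, also for Irf8, gave 1.45 at day 14 (limma adjusted p = 0.00323) and 0.71 at day 25 (limma adjusted p = 0.247).

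Socs1, the inhibitor that the pathway induces, could hardly be measured. All 35 arrays of probe set 1450446_a_at lay between 1.73 and 2.54. Day 14 allografts gave 2.54, 1.88, 1.90, 2.15 and 2.27, against 1.96, 1.91, 1.95, 1.81 and 1.82 in day 14 isografts. Of these, 3 allograft arrays lay above the isografts and 2 lay among them. The difference of 0.26 passed the test (1.20-fold, SE 0.09, limma adjusted p = 0.044), but 7 of the 10 single-array omissions ended the call, and without allograft day 14 replicate 1 it was 0.16 (limma adjusted p = 0.208). The other groups had means of 1.80 to 1.89, and no comparison among those groups passed. No level of Socs1 transcript was read from values this low.

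Set side by side, the members' calls between allografts and isografts were few at day 4 and more numerous later. At day 4 none of the 8 passed by limma (0.345% of all 22626 probe sets did), and Irf1 was the 1 member with an unadjusted p under 0.05. At day 14, 5 of 8 were higher in allografts (Ifng, Irf1, Irf8, Jak2 and Socs1), where 5.92% of all probe sets were higher and 11.1% were called either way. Of these 5, Socs1 was near background in both groups. At day 25, 4 of 8 were higher (Ifng, Ifngr1, Irf1 and Irf8), beside 4.03% of all probe sets higher and 9.49% called either way. No member was lower at any day. The median difference of the 8 was 0.15, 0.77 and 0.64 at days 4, 14 and 25, beside -0.07, -0.02 and 0.03 over all probe sets.

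**Figure D2:**
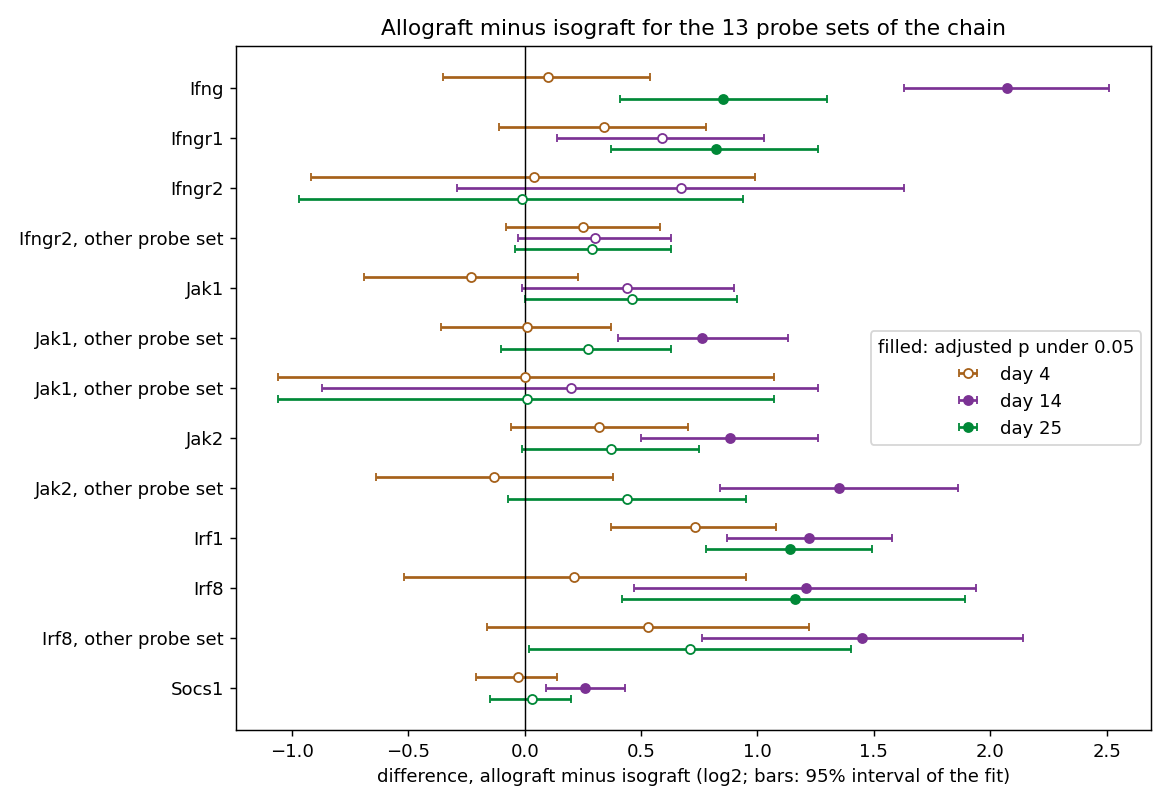
Allograft minus isograft difference (horizontal axis, log2) for the 13 probe sets of the chain (vertical axis) at days 4, 14 and 25; points are the fitted differences, bars their 95% intervals, and filled points have a limma adjusted p under 0.05. The widest separation is Ifng at day 14 (2.07), Irf1 lies at 0.73, 1.22 and 1.14 over the days, and the Ifngr2 bars span 0 at each day.

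Against native trachea, Irf8 was higher in every graft group, by 2.66, 3.12 and 3.19 in allografts (limma adjusted p = 1.02e-06, 4.18e-08 and 2.89e-08) and by 2.45, 1.92 and 2.03 in isografts (limma adjusted p = 4.46e-06, 0.000424 and 0.000306) at days 4, 14 and 25. The markers of all leukocytes moved with it. All 6 of these markers, Ptprc, Itgb2, Coro1a, Laptm5, Cd52 and Cd53, were higher than native in each of the 6 graft groups, and their mean level ran from 9.74 to 11.02 over all allograft arrays at day 25 and from 8.59 to 10.02 in day 25 isografts, against 6.51 to 7.85 in native trachea. The part of leukocyte content in the Irf8 values was not tested. These 6 comparisons share the same 5 native arrays and are not independent of each other.

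In allografts 4 of 8 members exceeded native at day 4 (Irf1, Irf8, Jak1 and Jak2), where 15.0% of all probe sets were higher. At day 14, 6 did (those 4 with Ifng and Socs1), beside 19.2%, and at day 25, 6 did (those 4 with Ifng and Ifngr1), beside 12.9%. Socs1 was near background in both groups, and its call was lost in a fit on the compared arrays alone (limma adjusted p = 0.0718). Irf1 was higher by 1.06, 1.68 and 1.49 at days 4, 14 and 25, with limma adjusted p = 2.03e-05, 5.74e-09 and 5.17e-08. Ifng exceeded native by 2.46 at day 14 and by 1.06 at day 25 (limma adjusted p = 2.12e-10 and 0.00038), in both cases with no overlap of arrays. Jak2 was higher by 1.04, 1.30 and 0.81, and Jak1 by 0.72, 0.58 and 0.82. The Jak1 call at day 14 had a limma adjusted p of 0.0426 and was lost on leaving out any of 8 of the 10 arrays, and that at day 4 was lost without allograft day 4 replicate 1 (0.57, limma adjusted p = 0.0616). Without the 2 arrays that stood apart, both Jak1 calls were lost (0.59 at day 4 and 0.46 at day 14, limma adjusted p = 0.05 and 0.104).

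In isografts 3 of 8 exceeded native at day 4 (Irf8, Jak1 by 0.95 and Jak2 by 0.73; 27.6% of all probe sets were higher), and only Irf8 did at day 14 (15.3%) and day 25 (5.53%). The share at day 4 was close to that of all probe sets. Low values shifted as a body in some of these comparisons. Of the 17 genes not expected in trachea, 9 were called higher than native in day 4 isografts and 7 in day 14 isografts, with medians of 0.30 and 0.32, and 3 in day 14 allografts, while none was called in the 3 allograft-isograft comparisons. No member was lower than native trachea in any graft group.

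Within allografts, 3 members were higher at day 14 than at day 4, with 1.99% of all probe sets higher. Ifng was higher by 2.05 (limma adjusted p = 3.56e-07), Irf1 by 0.62 (limma adjusted p = 0.0328) and Socs1, near background on both days, by 0.30 (limma adjusted p = 0.0385). Single-array omissions ended the Irf1 call in 5 of 10 cases and the Socs1 call in 8 of 10. From day 14 to day 25, Ifng was the 1 member called, with a difference of -1.40 (limma adjusted p = 0.000172), beside 0.862% of all probe sets lower. That call was lost in a fit on the 10 compared arrays alone (limma adjusted p = 0.0986). Irf1 and Irf8 gave -0.18 and 0.06 over the same interval, with 95% intervals of -0.54 to 0.17 and -0.67 to 0.80.

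Within isografts, Jak1 was the 1 member called between days 4 and 14, with a difference of -0.81 (limma adjusted p = 0.0134), beside 7.36% of all probe sets lower. Without isograft day 4 replicate 1 (-0.65) or isograft day 14 replicate 4 (-0.68) it no longer passed. Nor did it in a fit on the compared arrays alone (limma adjusted p = 0.0607) or as a mean of the Jak1 probe sets (-0.60, limma adjusted p = 0.0774). Between days 14 and 25 none of the 8 members passed by limma, none had an unadjusted p under 0.05, and 0.0% of all probe sets were called.

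Whether the allograft-isograft difference itself changed between days was tested as an interaction. For Ifng it grew by 1.97 between days 4 and 14 (SE 0.31, limma adjusted p = 0.000118), the 1 member called where 1.33% of all probe sets grew. Irf8 gave 1.00, Jak1 0.67, Jak2 0.56 and Irf1 0.49, none of which passed, with limma adjusted p of 0.352 to 0.43. Between days 14 and 25 no member passed by limma (0.477% of all probe sets did), and Ifng, at -1.22 with a limma adjusted p of 0.0696, was the 1 member with an unadjusted p under 0.05. The Irf1 difference changed by -0.09 in that interval, with a 95% interval of -0.59 to 0.42.

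Genes that interferon-gamma is known to induce stood higher in allografts from day 4 on. At day 4 Ifng itself was near background in allografts (mean 3.18) and isografts (3.08) and was not called. What induced these genes was not tested. Of 23 measured targets, 11 were higher in allografts at day 4, 20 at day 14 and 17 at day 25, and none was lower. The 20 at day 14 included Nos2, which was near background in every group (means of 1.88 to 2.49). Of all probe sets, 0.345% were called either way at day 4, and 5.92% and 4.03% were higher at days 14 and 25. The median difference of the targets was 1.30, 2.29 and 1.84, beside -0.07, -0.02 and 0.03 over all probe sets. The chemokine Cxcl9, which attracts activated T cells, averaged 8.93 ± 0.92 in day 4 allografts and 3.83 ± 0.70 in day 4 isografts (SD), a difference of 5.10 (limma adjusted p = 1.48e-09) whose size is uncertain because the isograft level was near background. At day 25 it averaged 11.44 ± 0.42 in allografts and 5.23 ± 0.95 in isografts. Iigp1 and Gbp2, GTPases of cell-autonomous defence, were higher by 2.81 and 2.75 at day 4 (limma adjusted p = 5.43e-06 and 1.66e-06), and Gbp2 and Igtp, another such GTPase, by 2.98 and 2.72 at day 25 (limma adjusted p = 1.78e-08 and 1.97e-08). The day 4 count fell to 5 in a fit on the compared arrays alone, and stayed between 10 and 11 on leaving out any 1 array.

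At day 14 the targets Ido1, Cxcl9 and Ubd gave differences of 5.33, 5.15 and 4.80, with limma adjusted p = 7.39e-13, 1.81e-10 and 4.93e-17. The isograft levels of Ido1 and Ubd were near background, so their sizes depend on the authors' background model and are not ranked against that of Cxcl9. Ido1, the tryptophan-degrading enzyme that restrains T cells, averaged 2.42, 7.77 and 2.46 in allografts at days 4, 14 and 25, against 2.62, 2.44 and 2.31 in isografts, so it left background only at day 14. Ubd, a ubiquitin-like protein, averaged 4.53, 8.47 and 5.03 in allografts and 3.50, 3.67 and 3.60 in isografts. The allograft-isograft difference grew between days 4 and 14 for 5 of the 23 targets, among them Ido1 by 5.53 and Ubd by 3.78 (limma adjusted p = 6.13e-09 and 6.01e-10). That difference grew for 1.33% of all probe sets. Between days 14 and 25 it shrank for 2 targets, with changes of -5.18 for Ido1 and -3.37 for Ubd (limma adjusted p = 4.7e-08 and 1.2e-08). In that interval 0.477% of all probe sets were called either way. Cxcl11 and Icam1 were called at no day, and Ciita, the switch for MHC class II, stayed under 4 in every group and was called at day 25 alone, at 0.51 (limma adjusted p = 0.0048).

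**Figure D3:**
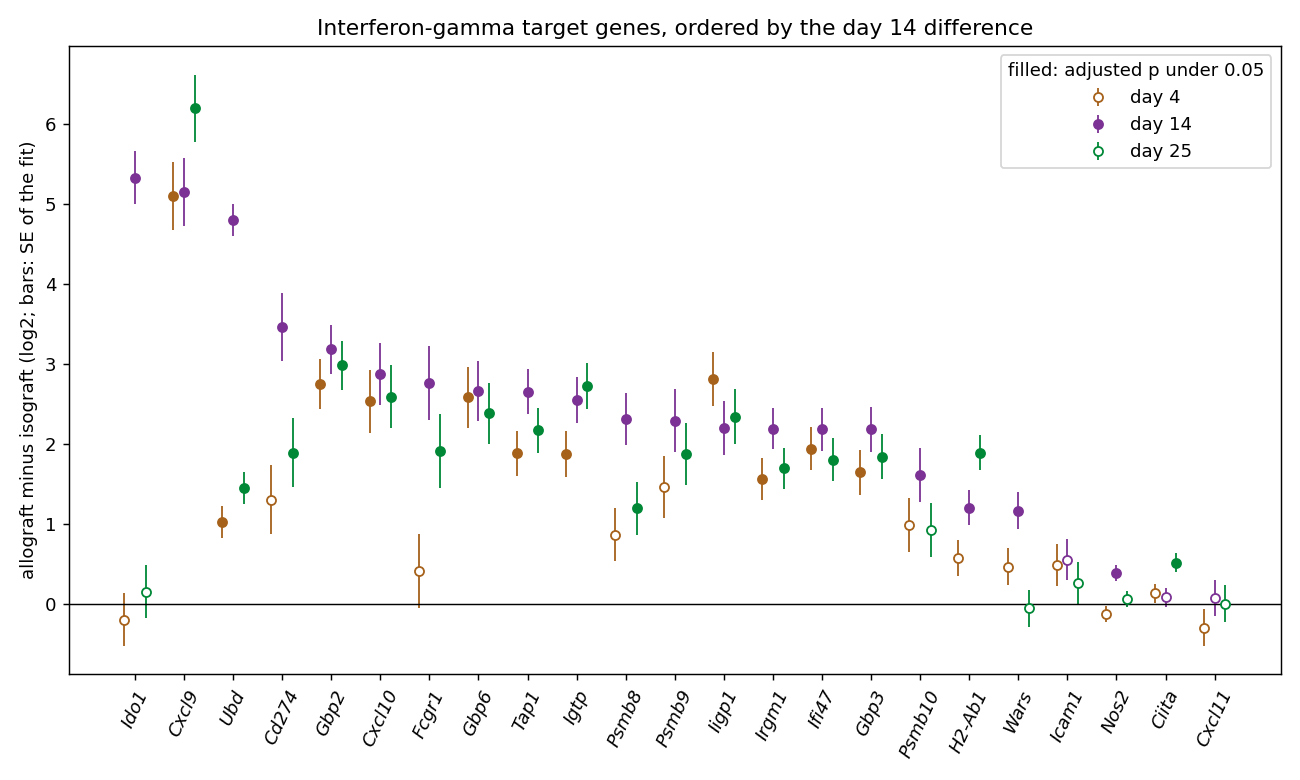
Allograft minus isograft difference (vertical axis, log2) of the 23 measured interferon-gamma targets (horizontal axis, in order of the day 14 difference) at days 4, 14 and 25; points are fitted differences, bars their SE, and filled points have a limma adjusted p under 0.05. Ido1 and Ubd stand far above their other days at day 14, whereas Cxcl9 is high throughout at 5.10, 5.15 and 6.2.

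Genes that drive production of the cytokine were called at days 14 and 25 and not at day 4. Many were near background, 8 of 14 in day 4 allografts and 9 in day 4 isografts. Their calls are therefore not ordered in time against those of the targets. Of 14 measured drivers, 0 passed at day 4, 6 were higher and 1 lower in allografts at day 14, and 6 were higher at day 25, with medians of 0.07, 0.52 and 0.67. Of all probe sets, 5.92% were higher and 5.18% lower at day 14, and 4.03% were higher at day 25. Fits on the compared arrays alone gave 3 higher at day 14 and 4 at day 25, and single omissions gave 4 to 6 and 5 to 7. Stat4, which carries the interleukin-12 signal, was higher by 1.84 at day 14 and by 1.63 at day 25 (limma adjusted p = 4.86e-05 and 0.000246). Ebi3, a subunit shared by interleukin-27 and interleukin-35, was higher by 1.30 and 1.99, and Il15, which sustains NK and memory T cells, by 1.18 and 1.49. The isograft means of Stat4 (2.94 and 3.21) and Ebi3 (3.50 and 3.62) were near background at days 14 and 25. The sizes of their differences thus depend on the authors' background model. Tbx21, the lineage factor of type 1 helper T cells, stayed under 4 in every group mean and was higher by 0.55 and 1.06. Il18r1, an interleukin-18 receptor chain, was the 1 driver lower in allografts, at -1.11 on day 14 (limma adjusted p = 0.0382). The subunits of interleukin-12 itself, Il12a and Il12b, were near background in all groups.

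Against native trachea, 18, 22 and 18 of the 23 targets were higher in allografts at days 4, 14 and 25, and 8, 12 and 8 in isografts. Of all probe sets, 15.0%, 19.2% and 12.9% were higher in those allografts and 27.6%, 15.3% and 5.53% in those isografts, so the isograft share at day 4 was near that of all probe sets. The targets called higher in day 4 isografts included Nos2, near background in every group. There was 1 target, Gbp6 at -1.38, that was lower in day 4 isografts (limma adjusted p = 0.00526), where 16.7% of all probe sets were lower. Cxcl9 exceeded native by 5.28, 7.44 and 7.79 in allografts and, in isografts, by 2.29 at day 14 and 1.58 at day 25. Fcgr1, the high-affinity antibody receptor of macrophages, exceeded native by 4.56 in day 4 allografts, 4.15 in day 4 isografts and 1.91 in day 25 isografts. The native means of Cxcl9 (3.65) and Fcgr1 (3.92) were near background, so the sizes of their differences depend on the authors' background model. Of the drivers, Ebi3 averaged 4.18, 4.80 and 5.61 in allografts at days 4, 14 and 25 and 3.81, 3.50 and 3.62 in isografts, against 2.40 in native trachea. It was called higher in all 6 comparisons, but the isograft and native means were near background, so no size is read from these differences. Irf7, an interferon-induced factor, led the other carriers with 2.47, 2.47 and 1.87 in allografts and 2.41, 1.93 and 1.49 in isografts. Socs3 was higher by 3.14 in day 4 allografts and by 2.84 in day 4 isografts.

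Other carriers and restrainers of the signal changed little between allografts and isografts. Of 8 measured carriers, none passed at day 4, while Nmi (0.96) and the lymphoid kinase Jak3 (0.78, near background in every group) were higher at day 14 and Irf9 (0.59), an interferon regulatory factor, was higher at day 25. Their limma adjusted p were 0.0178, 0.0275 and 0.0234. The day 14 count of 2 ran from 0 to 3 on leaving out single arrays, with 0 or 1 on omission of isograft replicate 1, 3 or 5 or allograft replicate 2, 3, 4 or 5, and it was 1 in a fit on the compared arrays alone. The Irf9 call was lost without any of isograft day 25 replicates 2, 4 and 5 or allograft day 25 replicates 1, 3 and 5, without the 2 arrays that stood apart, and in a fit on the compared arrays alone. Of 11 restrainers, Socs3, which limits interleukin-6 signalling, was higher by 1.80 at day 14 (limma adjusted p = 0.00192), and the phosphatase Ptpn6 by 0.93 at day 25 (limma adjusted p = 0.00295). Socs2, known for limiting growth hormone signalling, was lower in allografts, with differences of -0.97 at day 14 and -1.56 at day 25 (limma adjusted p = 0.0214 and 0.000209). None of 6 measured ligands and receptors of related cytokines, Ifnb1, Ifnar1, Ifnar2, Il10, Il10ra and Il10rb, passed at any day; 2 of them were near background in every group.

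Some markers of the cell types that make or answer the cytokine also differed between grafts. Of 8 T cell markers, 0, 4 and 4 were higher in allografts at days 4, 14 and 25, and of 5 NK cell markers 1, 3 and 4, where 5.92% and 4.03% of all probe sets were higher at days 14 and 25 and 0.345% were called at day 4. The T cell markers together averaged 3.64 to 4.08 in day 4 allografts, 4.76 to 5.76 in day 14 allografts and 5.22 to 5.75 in day 25 allografts, against 3.73 to 4.05, 3.84 to 4.24 and 3.87 to 5.19 in isografts and 3.56 to 5.35 in native trachea. Cd3d, a chain of the T cell receptor complex, was higher by 3.15 at day 14 and by 1.85 at day 25 (limma adjusted p = 2.11e-05 and 0.00992). Its day 14 isograft mean of 3.52 was near background, so the size at day 14 depends on the authors' background model. The T cell marker Cd4 averaged 5.43, 5.56 and 5.62 in allografts at days 4, 14 and 25, against 5.54, 5.73 and 5.31 in isografts. The NK cell markers averaged 4.07 to 4.70, 4.56 to 5.64 and 5.03 to 5.59 in allografts at days 4, 14 and 25, against 3.59 to 3.99, 3.50 to 4.01 and 3.11 to 3.91 in isografts and 2.74 to 3.31 in native trachea. In allografts the levels of both lists overlapped between days 14 and 25. Klrd1, an NK receptor chain, was higher in allografts by 2.01 already at day 4 (limma adjusted p = 2.78e-05) and by 3.05 and 3.49 later. The day 25 isograft mean of Klrd1, 3.71, was near background as well. Ncr1, another of the NK cell markers, was near background in every group (means of 2.24 to 2.70), as was the T cell marker Cd6. The part of T cell and NK cell content in the Ifng values was not tested.

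Leukocyte and macrophage markers differed between allografts and isografts as well. All leukocyte markers together ran from 9.76 to 10.61 in day 14 allografts and from 8.68 to 9.15 in day 14 isografts, and 6 of 6 passed there (5.92% of all probe sets were higher), against 1 of 6 at day 4 and 5 of 6 at day 25 (4.03%). The day 4 call was lost on leaving out any of 8 of the 10 arrays. At day 25, leaving out isograft replicate 2, 4 or 5 or allograft replicate 3 or 5 gave 2 or 3, as did leaving out the 2 arrays that stood apart (3) and a fit on the compared arrays alone (2). Of 7 macrophage and monocyte markers 0, 3 and 2 were higher in allografts at days 4, 14 and 25, and 1 was lower at day 25, with mean levels of 8.51 to 9.57 in day 25 allografts and 7.45 to 8.72 in day 25 isografts. The count of 3 became 1 without allograft day 14 replicate 2, and that of 2 became 5 without isograft day 25 replicate 1 and 1 in a fit on the compared arrays alone. Airway epithelium markers, which check the tissue label, were present in native trachea (9.16 to 11.06) and in isografts, and all 6 were lower in allografts at day 14 and day 25, beside 5.18% and 5.47% of all probe sets. Their level was 4.88 to 7.01 in day 14 allografts and 3.32 to 3.73 in day 25 allografts, against 9.05 to 9.90 and 9.13 to 10.01 in isografts. Markers of neighbouring tissue differed too. The 3 measured thyroid and parathyroid markers together ran from 3.11 to 3.37 in day 14 allografts and from 2.96 to 3.16 in day 25 allografts, against 7.85 to 10.19 and 7.64 to 9.85 in isografts and 10.36 to 10.85 in native trachea, and 2 of 3 were lower in allografts at each of these days. Skeletal muscle markers ran from 3.40 to 5.22 in day 14 allografts, against 4.99 to 9.98 in day 14 isografts and 8.80 to 12.69 in native trachea. Of these 6 muscle markers, 5 were lower in allografts at day 14 and none passed at day 25. The part of these shifts in tissue content in the members' values was not tested.

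**Figure D4:**
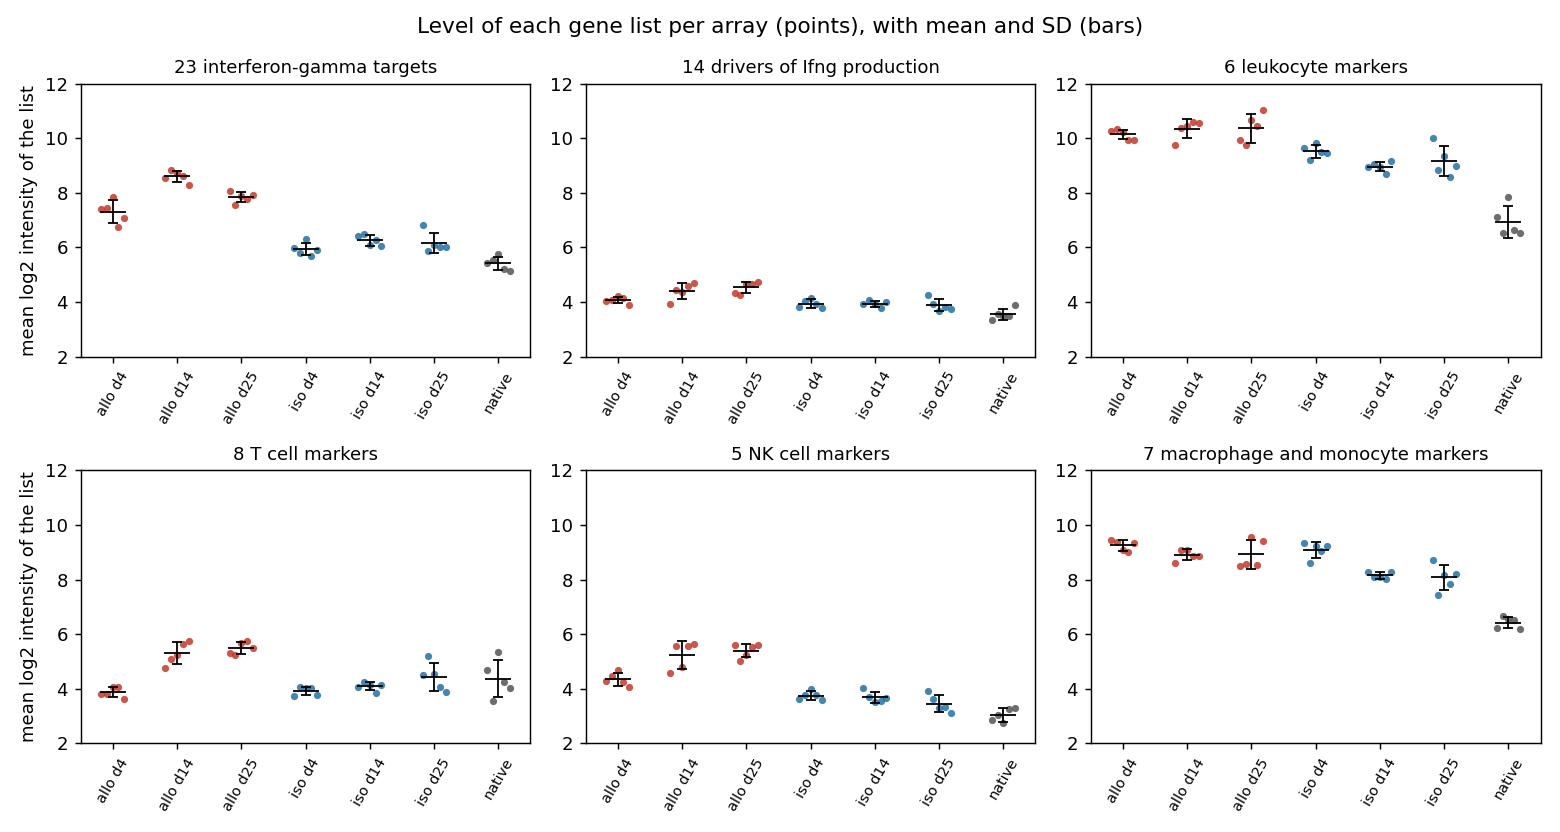
Mean log2 intensity over the genes of a list (vertical axis) on each of the 35 arrays, by group (horizontal axis); points are arrays and bars the mean and SD of 5 arrays. The target genes are highest in day 14 allografts (8.27 to 8.83), the leukocyte markers are lowest in native trachea (6.51 to 7.85), and the T cell markers are highest in day 14 and day 25 allografts.

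Among 8300 genes with 5 or more arrays at log2 5 or more, those whose 7 group means ran most like a member's were found by the mean absolute difference after each gene was centred on its own mean. Ifng itself did not pass this filter, which admits a gene that is bright in a single group, and Gzme was above 5 only in the day 14 allograft mean. Closest to Ifng among the genes compared were Gzme, a granzyme of cytotoxic lymphocytes (0.15), Hoxc6 (0.20) and Arsi (0.22). Gzme averaged 3.90, 6.66 and 4.82 in allografts at days 4, 14 and 25, against 4.17, 4.04 and 4.01 in isografts and 3.67 in native trachea. Closest to Irf1 were Serpinb9 (0.09), Il2rb (0.10) and Chm (0.11). Hoxc6 and Il2rb had means above 5 only in allografts at day 14 (5.79 and 5.12) and day 25 (5.02 and 5.16). Irf8 ran most like Nckap1l (0.09), Ptprc, the common leukocyte antigen (0.09), and Otulinl (0.10). The nearly flat Socs1 had Map3k11, Brat1 and Ptrhd1 within 0.04 to 0.05, which says only that these genes were flat too.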

How the data were processed

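Tracheal RNA from 35 mouse samples (7 groups of 5) was labelled with biotin and hybridised to arrays, per the labels. The authors deposited log2 intensities made with GCRMA 1.1.3, per the submitters' processing notes; no detection call or scan date was used here, and the number of arrays limits the precision. Of 22690 probe sets 64 controls were set aside, and 20380 of the other 22626 named 1 gene, 691 several and 1555 none. All 22626 were tested without a filter, because Ifng and Socs1 lie under the usual one. The model held 1 mean per group (28 residual degrees of freedom over 35 arrays) and was fitted by lmFit and moderated by eBayes (limma 3.58.1, R 4.3.3), and a probe set was called at a Benjamini-Hochberg adjusted p under 0.05 within its comparison. There were 15 comparisons. The script was tested on simulated data.

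Members and gene lists were chosen with earlier results of these data known. All 8 members were tested in every comparison, and those called are named, with up to 3 called genes of each list per allograft-isograft comparison and 2 per comparison with native trachea, and the 3 genes nearest in pattern to Ifng, Irf1, Irf8 and Socs1. Other genes named (such as Cxcl11, Icam1, Ciita, Tbx21, Il18r1, Il12a, Cd3d and Klrd1) were picked after their values were seen. Replicate numbers did not pair the samples: same-numbered arrays deviated together with correlations of -0.44 to 0.45 (median 0.04), and 36 of 105 pairs exceeded 0.1. No 2 arrays held the same values. Alternatives covered the filter, normalization, array weights, variance model, arrays fitted, threshold, choice of probe set and single-array omission.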

Additional observations from a re-analysis of the deposited data

Results flagged for a closer look

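Ifngr2 in isograft day 14 replicate 4 lay far from its group, at 5.18 where the other 4 arrays lay between 3.62 and 3.89 (a gap of 0.825 of the range, above Dixon's critical value of 0.71). Chance flags about 1 in 20 groups, and 56 groups were tested. The allograft-isograft difference of Ifng changed between days 4 and 14 by 1.97 (SE 0.31, limma adjusted p = 0.000118), from an interaction term; the day 14 allografts averaged 5.23 and the day 14 isografts 3.16.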

How the results depend on the processing

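The day 14 and day 25 calls of Irf1 held under all settings run, and the day 14 call of Ifng under all in which it was tested. The day 14 call of Jak2 missed the 2-fold minimum, and the day 25 call of Ifngr1 missed both that and adjusted p under 0.01. With only probe sets at log2 5 in 5 arrays, Ifng and Socs1 are not tested, so their calls drop out of every count that held them. Among others, the number of members called was 3 at day 14 (5 without the filter), 1 for allografts at day 14 versus day 4 (3), 0 for day 25 versus day 14 (1) and 0 for the change between days 4 and 14 (1). Counts at adjusted p under 0.01 were 3 at day 14, 2 at day 25 (4), 1 for allografts at day 14 versus day 4 and 0 for isografts at day 14 versus day 4 (1). That threshold also ended the Jak1 calls of day 4 and day 14 allografts versus native. A 2-fold minimum left 3 at day 14, 2 at day 25, 1 for day 4 isografts versus native (3), 3 for day 25 allografts versus native (6), 1 for allografts at day 14 versus day 4 and 0 for isografts at day 14 versus day 4. It also ended the calls of Jak1 in day 4 allografts versus native and of Jak1 and Socs1 in day 14 allografts versus native. Fits on the compared arrays alone gave 2 at day 25, 1 and 0 for the steps within allografts, 0 for isografts at day 14 versus day 4 and 2 for the change between days 4 and 14; fewer arrays then estimate the spread. Array weights gave 1 at day 4 (0), 2 for day 14 isografts versus native (1) and 1 for the change between days 14 and 25 (0). Repeated quantile normalization gave 3 for day 14 isografts versus native and 1 for the change between days 14 and 25. Averaging all probe sets per gene gave 2 for day 14 isografts versus native and 2 for the change between days 4 and 14, and an intensity trend gave 2 for allografts at day 25 versus day 14; the cause was not tested. With the replicate number as a block, although the numbers do not pair the samples, 1 member was called at day 4 and 2 for day 14 isografts versus native; at day 14 Ifngr1 (0.59) passed and Socs1 (0.26) did not. 7 arrays were closest to an array of their own number.

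Leaving out single arrays gave 0 to 1 members at day 4, 3 to 5 at day 14 and 3 to 4 at day 25. Against native it gave 3 to 4, 5 to 6 and 6 in allografts and 3 to 4, 1 to 2 and 1 in isografts. It gave 1 to 2 for each step within allografts, 0 to 1 and 0 for those within isografts, and 1 and 0 to 1 for the changes of the difference. Values near 0 changed sign. Socs1 at day 4 was 0.04 after quantile normalization. Ifngr2 at day 25 was 0.08 after it, 0.07 after centring, 0.27 with weights, 0.41 without the 2 arrays that stood apart, 0.14 as a mean of probe sets, and -0.25 to 0.41 over single omissions; at day 4 those ran from -0.15 to 0.30. Over all probe sets, weights raised the day 4 count to 318 (78) and fits on the compared arrays gave 39. Centring turned the day 25 split to 1212 higher and 1038 lower (911 and 1237). Quantile normalization moved the median of day 4 isografts versus native to 0.04 (0.15).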
